A study of Mus musculus with 12 samples.

Results

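The miR-224/452 cluster consists of 4 mature microRNAs (miRNAs), mmu-mir-224-5p, mmu-mir-224-3p, mmu-mir-452-5p and mmu-mir-452-3p, which are the arms of 2 hairpins that lie within the gene Gabre on the mouse X chromosome. They were chosen by name, and the cluster was selected on the rise of miR-224-5p in the colon of mice with colitis, so the values of that comparison are given as a description and without a test. The 4 arms are 4 of the 1978 mature miRNAs in the count table, of which 1300 had at least 1 read in colon and 1121 in blood. Of the 4 arms, only miR-224-5p passed the filter on low counts, in colon and in blood.

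Small RNA was sequenced from the colon and the whole blood of 6 C57BL/6 male mice, bought at 8 weeks of age, which gives 12 libraries in 4 groups of 3. The 3 DSS mice (mice 1, 7 and 9) drank dextran sulfate sodium (DSS), a polysaccharide that erodes the colonic epithelium, over 7 days, at 1.5% (wt/vol) of their drinking water, and then plain water. The 3 control mice (mice 2, 4 and 8) were kept alongside on the same water with no DSS, and all mice were killed on day 8. The 6 mice had been picked from a larger cohort by their disease activity index, a score of weight loss, stool and bleeding, so they are not a random draw from it.

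The sample labels disagree with this grouping, which follows the study's own figures. The disease state label names mice 1, 2 and 4 as colitis and mice 7, 8 and 9 as healthy, so the groupings share their assignment for mice 1 and 8 alone. The source and tissue labels of each library also contradict each other, and the tissue label was followed. The marker miRNAs matched the tissue label in all 12 libraries. The 5 erythroid miRNAs of the marker list, which include miR-451a, made up 76.3% to 83.9% of the total counts of each blood library. In each colon library they made up 0.283% to 0.501%. The erythroid share is one of counts and not of distinct reads. miR-486a-5p and miR-486b-5p, both in that list, had near-equal counts in blood, and reads that match both can count at each. The 9 epithelial miRNAs, which include the miR-200 family, made up 7.15% to 19.1% of colon counts and at most 0.149% of blood counts. Total counts were 15060553 to 20106226 per colon library and 21127134 to 32944792 per blood library.

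A miRNA is cut from an RNA hairpin, which can leave a strand from its 5′ side (the 5p arm) and one from its 3′ side (the 3p arm). Usually 1 strand is retained in an Argonaute protein and the other is degraded. The retained strand recognises messenger RNAs mainly through its seed, bases 2 to 8, and represses them. Gabre encodes the epsilon subunit of the GABA-A receptor, and a miRNA hairpin within an intron can be made from the transcript of its host gene. miR-224 is known as a TGF-β responsive miRNA that represses Smad4 in ovarian granulosa cells, and it is often raised in liver and colorectal tumours. miR-452 is known from neural crest cells.

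The mature sequences of the 4 arms are shown because their seeds decide which relatives could share targets or reads with them. They are the deposited sequences, which were identical to those of RefSeq (GRCm38.p6), and the capitals mark the seed.
mmu-mir-224-5p: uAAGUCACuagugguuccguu
mmu-mir-224-3p: aAAUGGUGcccuagugacuaca
mmu-mir-452-5p: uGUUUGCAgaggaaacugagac
mmu-mir-452-3p: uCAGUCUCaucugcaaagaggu
The 4 seeds differ from each other. Among the 1405 mature sequences of the deposited normalized signal, which include the 4 arms, no other has the seed of any of the 4 arms. The miRNAs of the count table with no sequence there were not searched. The nearest other mature sequence is 8 single-base edits away from miR-224-5p and 7 away from miR-452-3p. Among these sequences, no close paralog was thus listed with which the reads of an arm could have been split.

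The hairpins from RefSeq show where the arms sit, and here the capitals mark the 5p arm and then the 3p arm.
Mir224: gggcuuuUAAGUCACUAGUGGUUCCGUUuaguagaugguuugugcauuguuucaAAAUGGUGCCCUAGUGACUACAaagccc
Mir452: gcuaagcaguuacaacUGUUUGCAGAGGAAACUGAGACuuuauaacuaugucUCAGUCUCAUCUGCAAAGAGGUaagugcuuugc
Mir224 is 82 bases long and lies at chrX:72261031-72261112 on the minus strand. Mir452 is 85 bases long and lies at chrX:72262224-72262308 on the same strand. RNAfold predicted a minimum free energy of −37.3 kcal/mol with 30 base pairs for Mir224, and of −40.0 kcal/mol with 31 base pairs for Mir452. The predicted energies of the 2 hairpins were thus close. Whether the fold bears on the reads of the arms was not tested.

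Gabre (ENSMUSG00000031340.8) spans chrX:72255999-72274803 on the minus strand in GENCODE's annotation of GRCm38. Both hairpins lie in intron 6 of its protein-coding transcript Gabre-201, which has 9 exons, and this intron of 3878 bases spans chrX:72258567-72262444. Mir452 begins 12495 bases and Mir224 begins 13691 bases downstream of the transcript's start, with 1111 bases between the hairpins. No exon of another gene overlaps either hairpin. Messenger RNA was not analysed here, so the level of Gabre itself is not given.

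**Figure D1:**
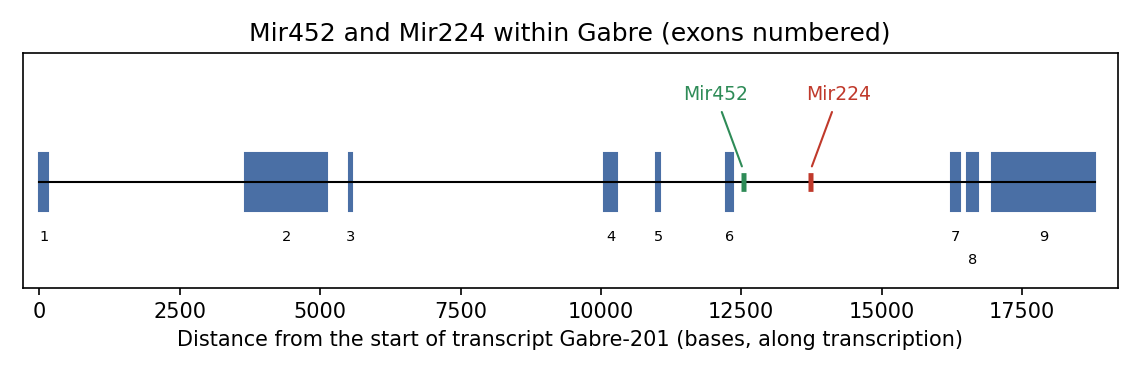
Map of Gabre-201 along the direction of transcription, in bases from the transcript's start (horizontal axis). Boxes are the 9 exons, and Mir452 and Mir224 are the marks in intron 6, with 1111 bases between them.

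Nearly all reads of the cluster came from a single arm, miR-224-5p. The 6 colon libraries held 23715 reads of miR-224-5p and 11 of miR-224-3p, so the 5p arm made up 99.95% of the reads of its hairpin (95% exact Clopper-Pearson interval 99.92% to 99.98%). In blood all 146 reads of the hairpin were of the 5p arm, for which the interval begins at 97.5%. The intervals and floors given here cover counting error only, since no molecular identifiers are described for these libraries.

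By colon library, miR-224-3p had 1, 3 and 4 reads in DSS mice 1, 7 and 9, and 0, 0 and 3 reads in control mice 2, 4 and 8. These counts overlap between the groups, and the share of the 5p arm in a colon library lay between 99.85% and 100%. With 14 to 33 reads of the hairpin per blood library, a 3p share as low as that of colon could not have been seen in blood, so the arm share was not compared between the tissues. In these libraries miR-224-5p was the abundant strand of its hairpin and miR-224-3p was at the edge of detection.

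miR-452, from the hairpin that lies closer to the start of Gabre, was almost unread. miR-452-5p had 1, 0 and 3 reads in the colon of DSS mice 1, 7 and 9 and 0 in each control colon. miR-452-3p had 1 read, in the colon of DSS mouse 1, and 0 elsewhere. In the 6 blood libraries miR-224-3p, miR-452-5p and miR-452-3p all had 0 reads. A count of 0 (3 counts of the total) allows a level of up to 0.0586 counts per 1000000 reads over the control colon libraries, 0.0409 over the control blood libraries and 0.0357 over the DSS blood libraries. The depth was therefore too low to compare either miR-452 arm or miR-224-3p between the groups.

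**Figure D2:**
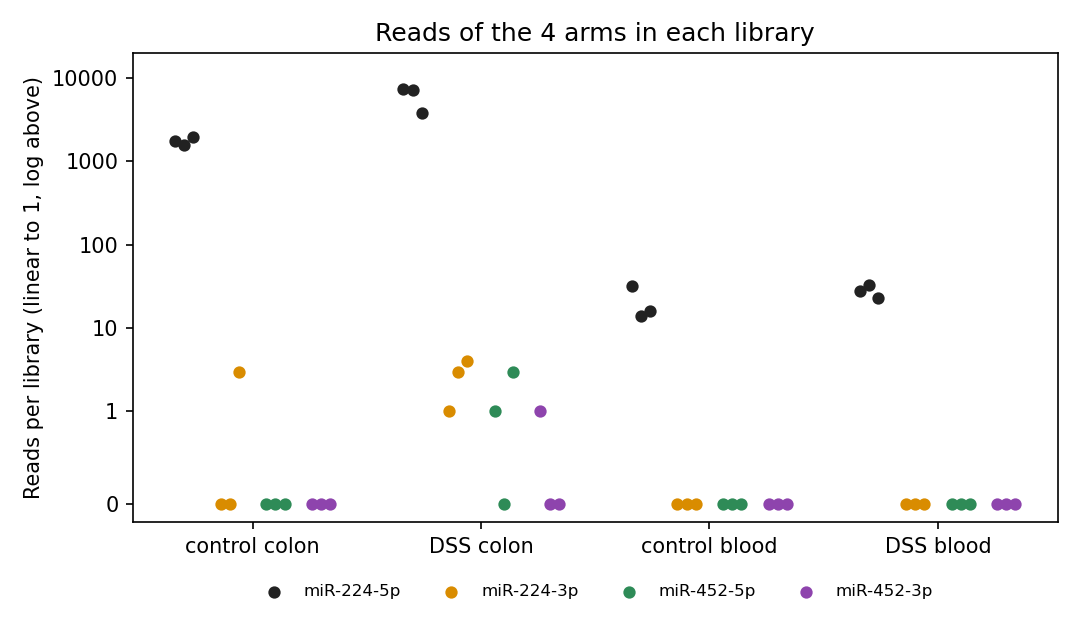
Reads of each of the 4 arms in each library (vertical axis linear from 0 to 1 and logarithmic above), by group, with 1 point per mouse. miR-224-5p had 1584 to 7475 reads per colon library and 14 to 33 per blood library, and no other arm passed 4 reads in a library.

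In colon, miR-224-5p was higher in the 3 DSS mice than in the 3 control mice. Levels are given as counts per 1000000 reads (CPM), with library sizes scaled by TMM factors within the tissue. The reads were 7475, 7145 and 3783 in DSS mice 1, 7 and 9, against 1765, 1584 and 1963 in control mice 2, 4 and 8. The CPM were 536, 403 and 146 in the DSS mice and 118, 95.7 and 123 in the control mice. The groups did not overlap, but DSS mouse 9 lay much closer to the highest control mouse than to the other DSS mice.

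The mean CPM in colon was 362 ± 198 (SD, n = 3) in DSS mice and 112 ± 14.5 (SD, n = 3) in control mice. The spread among DSS mice was thus far wider than among controls. edgeR fitted a log2 fold change of 1.69 (SE 0.43), which is 3.22-fold and the 6th highest of the 542 miRNAs tested in colon. The median log2 fold change of these 542 miRNAs was 0.04. It is this value that led to the choice of the cluster, so no test of it is given. For the background, 55 of 542 miRNAs (10.1%) were significantly differentially expressed (SDE) in colon, a term used here for a fold change over 1.5 with an adjusted p (edgeR's quasi-likelihood test, Benjamini-Hochberg) that does not exceed 0.05. Of these, 32 were higher and 23 lower in DSS mice, a split that was 38 to 9 with scaling by total counts, 6 to 10 with RLE factors and 4 to 4 with upper-quartile factors.

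The size of the difference rested on which DSS mice were included. Without DSS mouse 1 the log2 fold change of miR-224-5p in colon was 1.27, and without DSS mouse 9 it was 2.06. On the deposited normalized signal, miR-224-5p was 8778, 6684 and 2421 in DSS mice 1, 7 and 9 and 2045, 1654 and 2126 in control mice 2, 4 and 8, which is the same order. With the mice grouped by the disease state label, the log2 fold change was 0.16. DESeq2, the tool of the study, gave 1.62 with the grouping followed here, and the study lists 1.6 for miR-224-5p in colon. Between mouse 1 and mouse 8 alone, which both groupings assign alike, it was 2.11, with no replicate. The rise is therefore a statement about mice 1, 7 and 9 against mice 2, 4 and 8.

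Within a library, miR-224-5p was a miRNA of moderate abundance. By read count it ranked 80, 90 and 117 among all miRNAs in the colon of DSS mice 1, 7 and 9, and 127, 138 and 127 in that of control mice 2, 4 and 8. In blood its rank lay between 340 and 438, where 806 to 919 miRNAs per library had a read.

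**Figure D3:**
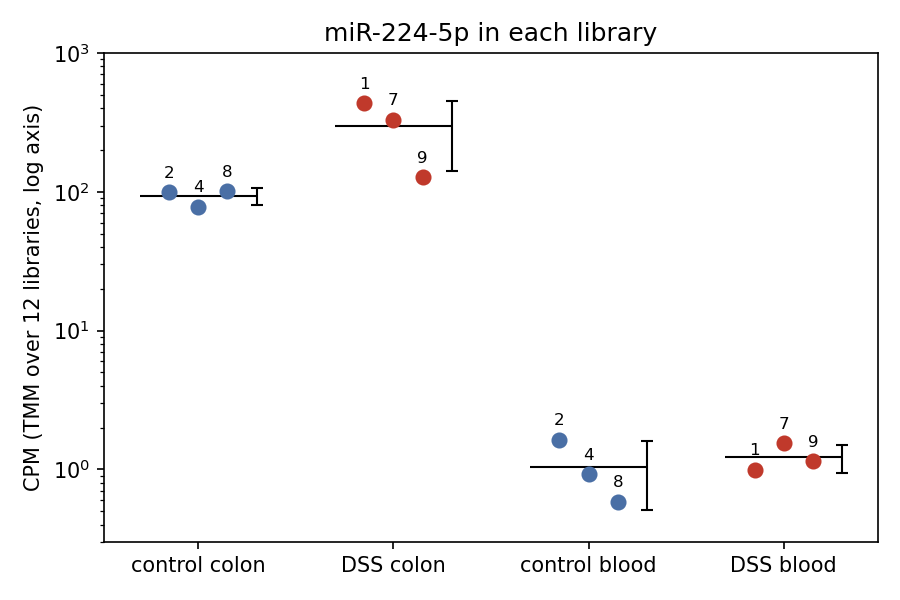
miR-224-5p in each library in CPM, with TMM factors over all 12 libraries so that both tissues share a scale (logarithmic vertical axis). Points are mice, marked by number, horizontal lines are group means and bars are ± 1 SD (n = 3). The DSS colon points of mice 1, 7 and 9 (434, 331 and 127 CPM) lie above the control colon points (78.1 to 101 CPM), and the blood points of both groups overlap near 1 CPM.

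Markers of cell types differed between the groups in the same colon libraries, where 5.9% of all 542 miRNAs were SDE and higher and 4.24% SDE and lower in DSS mice. In CPM, the summed epithelial markers were 136222, 79856 and 55653 in DSS mice 1, 7 and 9 against 163013 to 204162 in control mice, and 4 of the 9 were SDE and lower. The 4 myeloid markers, which include miR-223-3p, summed to 369, 530 and 1123 in DSS mice 1, 7 and 9 and to 254 to 379 in control mice, and 2 of the 4 were SDE and higher. The 3 stromal markers summed to 5006 to 5705 in DSS mice and 3492 to 3694 in control mice, with 1 of 3 SDE and higher. The 5 muscle markers overlapped between the groups, at 260471 to 353556 in DSS mice and 284181 to 362709 in control mice, and 0 of 5 were SDE. The 2 endothelial markers summed to 6861 to 7340 in DSS mice and 5144 to 5558 in control mice, with 0 of 2 SDE. The 4 of 5 erythroid markers that were tested had 0 SDE, with sums of 3231 to 4730 and 3126 to 4288.

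Among the DSS mice, miR-224-5p followed the order of the epithelial and endothelial sums, which were highest in mouse 1 and lowest in mouse 9. The endothelial sums were close together, at 7340, 6961 and 6861 in DSS mice 1, 7 and 9. miR-224-5p ran opposite to the myeloid and stromal sums, which were lowest in mouse 1 and highest in mouse 9. The muscle and erythroid sums had neither order. Against the control mice, however, the epithelial sum was lower in all 3 DSS mice and miR-224-5p was higher, as were the endothelial and stromal sums. The part of these cell type differences in the level of miR-224-5p was not tested. In bulk tissue, a change in the number of cells that make a miRNA and a change in its amount per cell cannot be told apart.

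In blood, no difference in miR-224-5p was detected between DSS and control mice. The reads were 28, 33 and 23 in DSS mice 1, 7 and 9 and 32, 14 and 16 in control mice 2, 4 and 8. The CPM were 0.705, 1.06 and 1.06 in the DSS mice and 1.44, 0.806 and 0.543 in the control mice. The groups overlapped, and the highest and the lowest value were both from control mice.

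The mean CPM in blood was 0.944 ± 0.207 (SD, n = 3) in DSS mice and 0.929 ± 0.460 (SD, n = 3) in control mice. The fitted log2 fold change, DSS over control, was 0.02 (SE 0.41, 95% interval −0.93 to 0.97), with an adjusted p of 0.985 in edgeR's quasi-likelihood test (Benjamini-Hochberg). An exact permutation test of log2(CPM + 1), two-sided, gave p = 1.0, where 3 against 3 mice can reach no less than 0.1. Grouped by the disease state label, the log2 fold change was 0.14. The interval thus still holds changes of nearly 1 log2 unit in either direction. The counts behind it are low, as the 14 reads of control mouse 4 have a 95% exact Poisson interval of 7.65 to 23.5.

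Of the 484 miRNAs tested in blood, 0 (0%) were SDE in edgeR's quasi-likelihood test, and 56 had an unadjusted p under 0.05. DESeq2's Wald test called 10. miR-224-5p had an unadjusted p of 0.960 among these 484 miRNAs (edgeR's quasi-likelihood test). Whether the effect of DSS on miR-224-5p differed between colon and blood was not tested, because the colon effect had chosen it.

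miR-224-5p was far higher in colon than in blood. The rule did not use this contrast, but it shares the control colon libraries, whose values were the lower side of the rise that chose the cluster, so the test is not fully independent of the choice. In the control mice, the fitted log2 difference was 6.35 (SE 0.40, 95% interval 5.47 to 7.24), which is 81.7-fold, with an adjusted p of 9.25e-08 in edgeR's quasi-likelihood test (Benjamini-Hochberg). It was higher in colon in 3 of 3 control mice. The exact permutation test of 3 against 3 libraries, which did not pair them by mouse, gave p = 0.1, the smallest it can give. Here 534 of the 603 miRNAs tested (88.6%) were SDE, so a call between these tissues is the rule and not the exception.

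Of these 534 miRNAs, 319 were higher and 215 lower in colon than in blood, a split that became 257 to 287 with upper-quartile factors. The median log2 difference of all 603 miRNAs was 1.20, and it was −0.34 with upper-quartile factors and 1.78 with total counts. Relative to that median, miR-224-5p was higher in colon by 5.15 on the log2 scale, and by 5.12 and 5.16 with upper-quartile factors and total counts. It ranked 118 of 603 from the highest. Blood and colon RNA were extracted with different kits, so tissue and extraction cannot be told apart.

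Taking each mouse by itself, with TMM factors over the 12 libraries, the colon level of miR-224-5p exceeded the blood level 60.6-fold, 85.1-fold and 173-fold in control mice 2, 4 and 8. In DSS mice 1, 7 and 9 it did so 438-fold, 216-fold and 111-fold. The ratio of DSS mouse 9 thus fell within the range of the control mice. Blood held 0.577% to 1.65% of the colon level in control mice and 0.228% to 0.897% in DSS mice.

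Markers of colon tissue were also present in blood at low level. Of the 9 epithelial markers, the mean level in control blood was between 0.0633% (miR-429-3p) and 6.96% (miR-200c-3p) of that in control colon. The 5 muscle markers had 0.0668% to 3.13%. The fitted log2 difference between colon and blood was 3.66 to 10.34 over the 9 epithelial markers, of which 8 lay above the 6.35 of miR-224-5p. It was 4.93 to 10.20 over the 5 muscle markers (4 above miR-224-5p), 5.35 to 7.57 over the 3 stromal markers (1 above) and 6.37 to 7.34 over the 2 endothelial markers (2 above). The 4 myeloid markers had −4.71 to 0.78 and the 5 erythroid markers −8.67 to −4.98. The source of the miR-224-5p reads in blood was not tested.

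**Figure D4:**
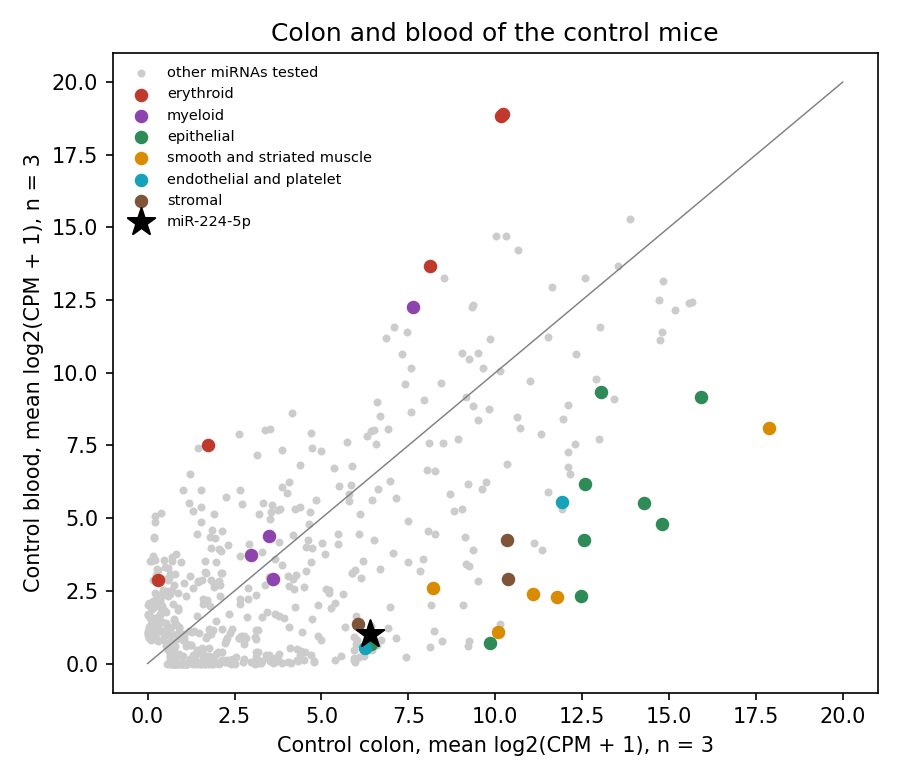
Mean log2(CPM + 1) in control colon (horizontal axis) against control blood (vertical axis), n = 3 libraries each, for the miRNAs tested between the tissues. The line marks equal levels, colours mark the marker lists, and the star is miR-224-5p, which lies on the colon side of the line, as do the epithelial, muscle, endothelial and stromal markers.

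The colon profile of miR-224-5p lay nearest to those of miR-10a, miR-10b and miR-615. Likeness was measured over the 6 colon libraries as the root mean square (RMS) difference of log2(CPM + 1), after each miRNA had been centred on its own mean, over 541 other miRNAs. The 5 nearest were miR-10b-3p (RMS 0.205), miR-10a-3p (0.231), miR-615-3p (0.253), miR-10a-5p (0.255) and miR-10b-5p (0.306), against a median RMS of 0.970. The 5 miRNAs are encoded within Hox gene clusters, on chromosomes 2, 11 and 15. They are thus not neighbours of the miR-224/452 cluster on the X chromosome. The 5 were picked for likeness to a profile that had itself been chosen for its rise in colon. Their calls in colon are thus a description and not a test. In colon, 0 of the 5 were SDE in edgeR's quasi-likelihood test, where 10.1% of all miRNAs were. The call turned with the fit, since 5 of 5 were SDE with DESeq2's Wald test and with no filter on low counts, and 3 of 5 with scaling by total counts. It was also 5 of 5 without DSS mouse 9, the DSS mouse that was low in the profile they were matched to. With Pearson correlation as the measure, miR-10a-3p and miR-10b-3p remained among the 5 nearest and the other three did not.

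In CPM, miR-10a-5p, the most abundant of them, was 67705, 38098 and 13136 in DSS mice 1, 7 and 9 and 13832, 14573 and 14886 in control mice 2, 4 and 8. miR-10b-5p was 31582, 21027 and 4730 in DSS mice, and 6085, 5951 and 5912 in the control mice. miR-10b-3p was 36.6, 30.2 and 7.66 in the DSS mice and 7.40, 8.15 and 7.83 in the control mice. These 3 miRNAs were high in DSS mice 1 and 7. DSS mouse 9 lay within the control range for miR-10b-3p and below it for miR-10a-5p and miR-10b-5p.

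miR-10a-3p was 96.2, 77.5 and 32.6 in DSS mice 1, 7 and 9 and 26.9, 28.0 and 25.9 in control mice 2, 4 and 8. miR-615-3p was 7.38, 4.68 and 0.697 in the DSS mice and 0.667, 0.725 and 0.313 in the control mice. As with miR-224-5p, mouse 9 of miR-10a-3p was above all control mice and far below the other DSS mice. The arms of a hairpin come from 1 transcript, and the 5p arms of miR-10a and miR-10b are near-identical in sequence and can share reads, so the 5 profiles are not independent. In blood, where miR-10a-5p and miR-10b-5p passed the filter, their log2 fold changes were −0.33 and −0.33, with adjusted p of 0.736 and 0.833 in edgeR's quasi-likelihood test.

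**Figure D5:**
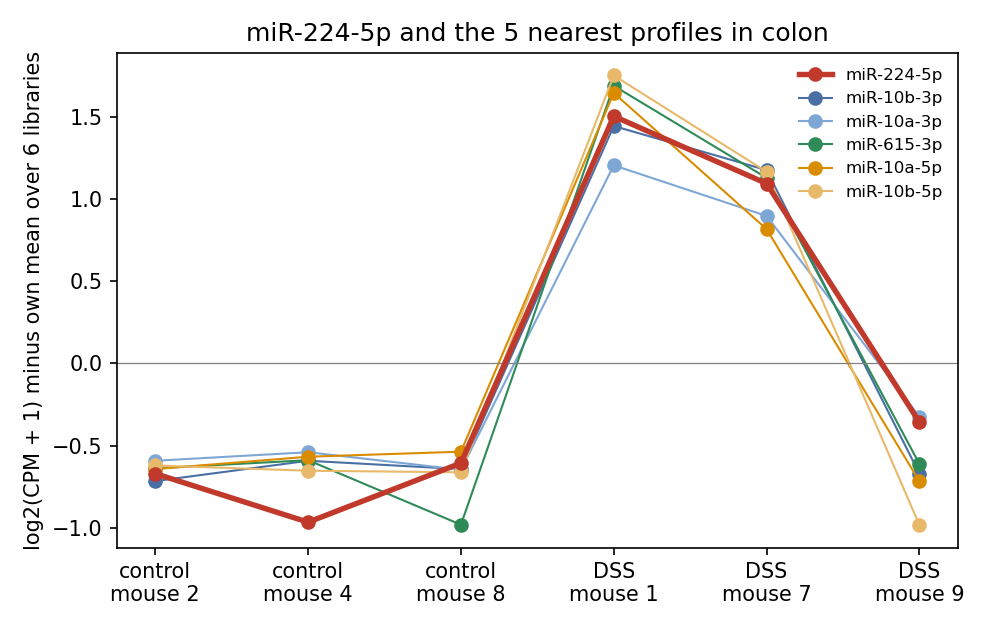
Centred log2(CPM + 1) of miR-224-5p (thick line) and the 5 nearest miRNAs in each colon library. Lines join the values of 1 miRNA and do not mark an order of mice. All 6 profiles were highest in DSS mouse 1, next in DSS mouse 7, and low in DSS mouse 9 and the control mice.

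Of 145 other miRNAs encoded on the X chromosome alone, 44 were tested in colon. Of these, 2 of 44 were SDE and higher in DSS mice, beside 5.9% of all 542 miRNAs, and 0 were lower, beside 4.24%. The median log2 fold change was 0.37 beside 0.04 over all 542. Both were arms of miR-223, a miRNA of neutrophils and other myeloid cells. In CPM, miR-223-5p was 44.9, 45.5 and 66.3 in DSS mice 1, 7 and 9 and 14.7, 14.9 and 14.9 in control mice 2, 4 and 8 (log2 fold change 1.82, SE 0.20, adjusted p of 0.0147 in edgeR's quasi-likelihood test). miR-223-3p had a log2 fold change of 1.93 (SE 0.41, adjusted p of 0.0431 in the same edgeR test). In contrast to miR-224-5p, both arms of miR-223 were highest in DSS mouse 9. In blood, 40 of these X-linked miRNAs were tested and 0 were SDE, with a median log2 fold change of −0.07 beside −0.05 over all 484.

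Of 26 arms of miRNAs known from tissue injury and inflammation, 21 were tested in colon, of which 8 were SDE and higher in DSS mice, beside 5.9% of all 542 miRNAs, and 0 lower, beside 4.24%. Their median log2 fold change was 0.93 beside 0.04 over all miRNAs. Beside miR-223-5p, the smallest adjusted p were those of miR-212-5p and miR-132-3p, which come from 1 cluster and are induced by CREB signalling. miR-212-5p was 109, 122 and 151 CPM in DSS mice 1, 7 and 9 and 49.6, 46.4 and 47.4 in control mice 2, 4 and 8 (log2 fold change 1.41, SE 0.16, adjusted p of 0.0147 in edgeR's quasi-likelihood test). miR-132-3p had 61.3, 90.9 and 111 CPM in those DSS mice, against 29.5, 32.7 and 27.6 (log2 fold change 1.55, SE 0.24, adjusted p of 0.0422 in the same edgeR test). In both, DSS mouse 9 was the highest and DSS mouse 1 the lowest of the DSS mice, which is the reverse of their order for miR-224-5p. In blood, 18 of these miRNAs were tested and 0 were SDE, with a median log2 fold change of −0.13 beside −0.05.

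The calls in colon depended on the scaling, on the fit and on single libraries. Of the 21 injury miRNAs tested, 4 were SDE with RLE factors, 3 with upper-quartile factors, 0 with 12 libraries in 1 fit and 9 without DSS mouse 1. With DESeq2 11 were SDE, and with no filter 13 of 25. With limma on the normalized signal, 0 of 25 were SDE. Of the X-linked miRNAs, 1 was SDE with RLE factors, upper-quartile factors or limma, 0 with 12 libraries in 1 fit, 3 with DESeq2, with no filter or without DSS mouse 1, and 4 without DSS mouse 9. The counts of SDE X-linked and injury miRNAs both fell to 0 without control mouse 2, 4 or 8 or without DSS mouse 7, as did the count over all miRNAs. Over the 6 fits that each left out 1 mouse, miR-223-5p kept a log2 fold change of 1.61 to 1.90, with adjusted p of 0.00395 to 0.147 in edgeR's quasi-likelihood test. With the disease state label the log2 fold change was −0.77 for miR-223-5p, −0.64 for miR-212-5p and −0.90 for miR-132-3p, against 0.16 for miR-224-5p.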

How the data were processed

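Small RNA from colon and whole blood of the same 6 mice was sequenced. The authors trimmed the reads with Flexbar, collapsed them and deposited counts per mature mouse miRNA of miRBase from miRDeep2's quantifier. They also deposited a normalized signal per tissue, the count divided by a DESeq2 size factor, and the tissues were normalized separately. All per-sample columns were used (0 left out).

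Each comparison was fitted alone on the counts with edgeR (4.0.16; R 4.3.3), with no covariates: filterByExpr, TMM factors, glmQLFit and glmQLFTest. A miRNA is SDE where its fold change exceeds 1.5 and its adjusted p (Benjamini-Hochberg) does not exceed 0.05. Within a tissue the replicates are separate mice, so p-values measure the spread between them. In the comparison of colon with blood, the same control mice gave the libraries of both tissues. The main fit and the permutation test did not pair them, and the replicate block did. The colon and blood libraries of a mouse share its number. The pairing was checked on 288 miRNAs, and the correlation of their deviations from the group means was −0.26 to 0.07 per mouse. Single values were compared with exact permutation tests in Python (3.11.15) with scipy (1.17.1), and hairpins were folded with RNAfold (2.7.2). Levels of likeness and permutation tests used log2(CPM + 1). Of the 1978 names, 1679 matched the RefSeq table, as did 4 of 4 arms. The edgeR fits were also run on simulated counts, and that outcome is not used here.

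Named miRNAs are the 4 arms, any miRNA with one of their seeds, the 5 with the nearest colon profile, and up to 3 higher and 3 lower SDE miRNAs with the smallest adjusted p in colon from each of 2 lists (X-linked, injury). The marker miRNAs were used as a check of tissue, and those named singly are examples or ends of a range. The cluster, the lists and the tests were chosen with earlier results of these data known. Alternatives were DESeq2 (1.42.0), RLE factors, upper-quartile factors or total counts, other filters (none, or at least 10 counts in every library), identical entries once, all 12 libraries in 1 fit, limma (3.58.1) on the deposited signal as log2(value + 1), the disease state labels, mice 1 and 8 alone, each mouse left out, the replicate block and the DSS mice for the tissue comparison, 1 count added to each arm, and Pearson correlation for likeness.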

Additional observations from a re-analysis of the deposited data

How the results depend on the processing

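In colon, the log2 fold change of miR-224-5p stayed positive in every alternative run. It was 0.16 with the disease state labels, 1.27 to 2.06 with a mouse left out and 1.43 to 2.11 in the others. The count of SDE miRNAs in colon was 74 with DESeq2, 76 with no filter, 16 with RLE factors, 8 with upper-quartile factors, 35 with identical entries once, 0 with 12 libraries in 1 fit, 6 with limma and 0 with the disease state labels, against 55, and 0 to 44 with a mouse left out. The cause was not tested. It was 0 without control mouse 2, 4 or 8 and without DSS mouse 7.

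In blood, miR-224-5p had log2 fold changes of −0.013 with at least 10 counts in every library and −0.017 with identical entries once, and −0.22 to 0.55 with a mouse left out. The adjusted p was 0.824 to 0.999 in all alternatives that gave one (edgeR or limma). The largest values outside the fits with a mouse left out were 0.33 with 12 libraries in 1 fit and 0.26 with total counts. The count of SDE miRNAs was 10 with DESeq2, 25 with no filter and 1 with 12 libraries in 1 fit, and 0 to 1 with a mouse left out (1 without control mouse 2).

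Between colon and blood, miR-224-5p of the control mice was SDE in every alternative, with log2 differences of 4.77 to 6.94, and of 6.03 to 6.50 with a control mouse left out. In the DSS mice the difference was 7.51, which rests on the colon values that chose the cluster and is given as a description. With the replicate block (paired by mouse) it was 6.41, and 524 miRNAs were SDE. The block changed no call of miR-224-5p. With at least 10 counts in every library, 248 were SDE, where 310 were tested instead of 603. By Pearson correlation, 2 of the 5 nearest profiles were the same (miR-10a-3p and miR-10b-3p), and miR-3099-3p, miR-152-5p and miR-485-5p replaced the others. The 5p share of miR-224 in colon was 99.95% with 1 count added to each arm. In blood, 14 to 33 reads per library limit what can be seen of miR-224-5p, and the other arms lie at or under 4 reads.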
